A study of Homo sapiens with 8 samples.

Results

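The 10 genes described here are CHD1 to CHD9, which encode the chromodomain helicase DNA-binding proteins, and EP400. All peaks of METTL3 RNA immunoprecipitation (RIP-seq) that lay whole within the GRCh38 span of one of these genes were taken, 34 of the 2616 peaks listed for LNCaP and 14 of the 1033 listed for PC3. The 10 genes are among 19974 protein-coding genes on chromosomes 1 to 22 and X. They were chosen from these same peak lists, with the number and fold of their peaks in view, so those values are a description and were not tested. LNCaP and PC3 are established human prostate cancer lines, the first androgen-sensitive and the second androgen-independent. There were 8 libraries in 4 groups of 2 replicates: LNCaP anti-METTL3 IP, LNCaP input, PC3 anti-METTL3 IP and PC3 input. No drug or gene change was labelled in any group. LNCaP was grown in 20% and PC3 in 10% fetal bovine serum, so culture and line cannot be told apart. Each line has a single deposited list without values per library, so no value below has an error between replicates, and the depth is unknown.

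METTL3 is the enzyme that methylates adenosines within messenger RNA, giving N6-methyladenosine, and RIP-seq recovers RNA that is bound to it directly or through partners. CHD proteins and EP400 are ATPases of the SNF2 family, which slide, evict or exchange nucleosomes. CHD1 and CHD2 act on transcribed chromatin; CHD3, CHD4 and CHD5 are the alternative motors of the NuRD deacetylase complex; CHD6 to CHD9 form a further subfamily; and EP400 is the motor of the TIP60 acetyltransferase complex, where it deposits histone variants.

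CHD4 had a peak beside the transcription start that the RefSeq promoter table (GRCh38.p14) lists for it, in both lines. The listed start is at position 6606451 of chromosome 12, on the minus strand. That start lies inside the gene span, whose 5′ end is at 6607379. The first minus-strand peak whole within the span began 19 bases after the listed start in LNCaP and 44 bases after it in PC3. A further PC3 peak on the minus strand, of 814 bp, lay 212 to 1025 bases before that start. It lay within the gene span except for 97 bp beyond the 5′ end, so it was not counted. The sequence around the start is shown because the 5′ edge of the LNCaP peak and the near edge of the upstream PC3 peak fall in it. It covers chr12:6606422-6606701, with 250 bases before the start and 30 from the start on, 5′ to 3′ on the minus strand. Capitals mark the first 39 bases, inside the upstream PC3 peak, and the last 11 bases, inside the LNCaP peak.
CHD4 start: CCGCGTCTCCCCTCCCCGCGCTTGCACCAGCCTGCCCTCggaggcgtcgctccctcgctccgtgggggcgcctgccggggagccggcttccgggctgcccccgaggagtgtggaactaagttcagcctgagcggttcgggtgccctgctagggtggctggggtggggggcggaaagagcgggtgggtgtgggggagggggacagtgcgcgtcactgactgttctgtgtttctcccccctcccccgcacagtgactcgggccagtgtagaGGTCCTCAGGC
In the other genes with a listed start and a peak, the nearest peak on the gene's strand began between 986 and 36854 bases from that start. CHD3, with the distance of 986 bases in LNCaP, also held a LNCaP peak 84 bp after the 5′ end of its gene span, which lies upstream of its listed start. GGACT, a common core of the METTL3 methylation motif, was searched on both strands of the 300-base windows of the table. It was absent from the CHD4 window and present in 5 of 10 windows of the 7 genes with an entry, against 44.2% of all 35116 windows. These are windows of promoter DNA, and most of the CHD4 sequence shown lies before the start. The search therefore cannot tell whether the RNA under a peak holds the motif. CHD5, CHD6 and CHD7 had no entry.

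Peaks lay on 6 of the 10 genes in LNCaP and on 5 in PC3. CHD3 and CHD4 held the most in LNCaP, with 9 and 8 peaks, followed by CHD2 with 6, CHD8 with 5, CHD6 with 4 and EP400 with 2. In PC3, CHD4 again held 8, while CHD3 and CHD8 held 2 each and CHD6 and EP400 1 each. CHD2 was the only gene with peaks in LNCaP and none in PC3. CHD1, CHD5, CHD7 and CHD9 held no peak in either list. Of all protein-coding genes, 5.62% held a whole peak in LNCaP and 1.83% in PC3. Long genes held peaks more often: among the 9243 genes with a span of at least 27960 bp, that of CHD3, the shortest of the 10, the shares were 9.25% and 3.29%. CHD9, the longest of the 10 with 272507 bp, and CHD7 with 189289 bp held none. The part of length in the counts on the 10 genes was not tested. In LNCaP 0.22% of those 19974 genes held at least 8 peaks, and in PC3 0.115% did.

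**Figure D1:**
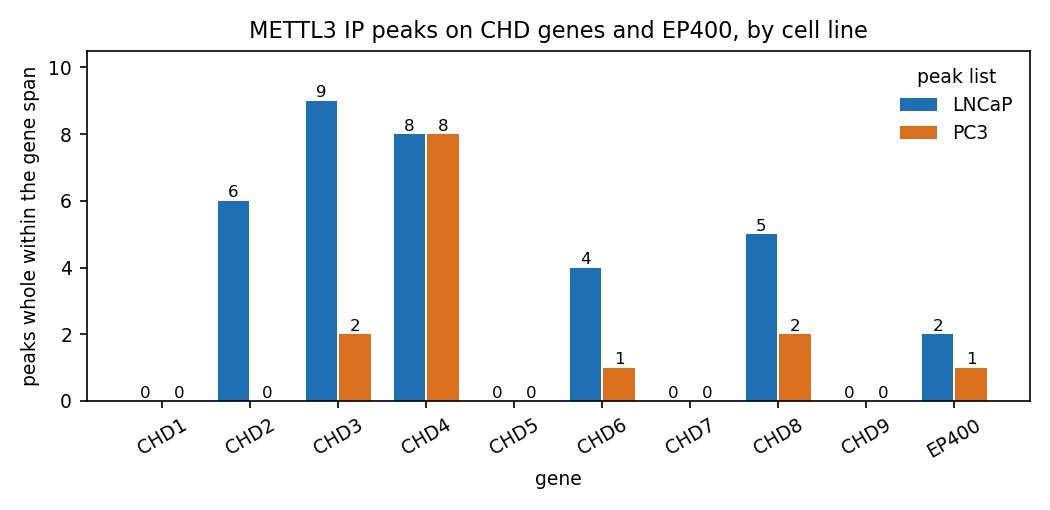
The bars give the number of peaks whole within each gene span, on either strand, for each of the 10 genes in the LNCaP (blue) and PC3 (orange) lists. CHD4 stands at 8 in both lists, CHD3 at 9 in LNCaP and 2 in PC3, and CHD1, CHD5, CHD7 and CHD9 stand at 0.

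The lists end at different p-values, which touches every difference in number between the lines. LNCaP peaks were listed up to a p of 0.0178, and PC3 peaks up to 1.59e-05. At or under the latter, LNCaP kept 2 of the 34 peaks, 1 on CHD3 and 1 on CHD4. Over the whole LNCaP list, 389 of 2616 peaks were that strong, a larger share than among the 34. Counted by gene, 1.33% of all protein-coding genes held a LNCaP peak that strong. The strongest LNCaP peak on CHD2 had a p of 2.92e-05, above the largest p of any peak listed for PC3. Whether a fixed limit ended the PC3 list is not given in the sources used here. A difference between the lines at CHD2 was not tested.

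The fold is the authors' linear fold enrichment of each peak, read as IP over input from the design, and was computed separately for each list. The median over the 34 LNCaP peaks was 6.03, beside 5.26 over the whole list, and 20 of the 34 lay above the latter. The median over the 14 PC3 peaks was 6.79, beside 5.74 for that list, and 9 of the 14 lay above it. Apart from a single EP400 peak with a fold of 123.9, the LNCaP folds ran from 3.76 to 9.31. Those in PC3 ran from 4.10 to 12.5.

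**Figure D2:**
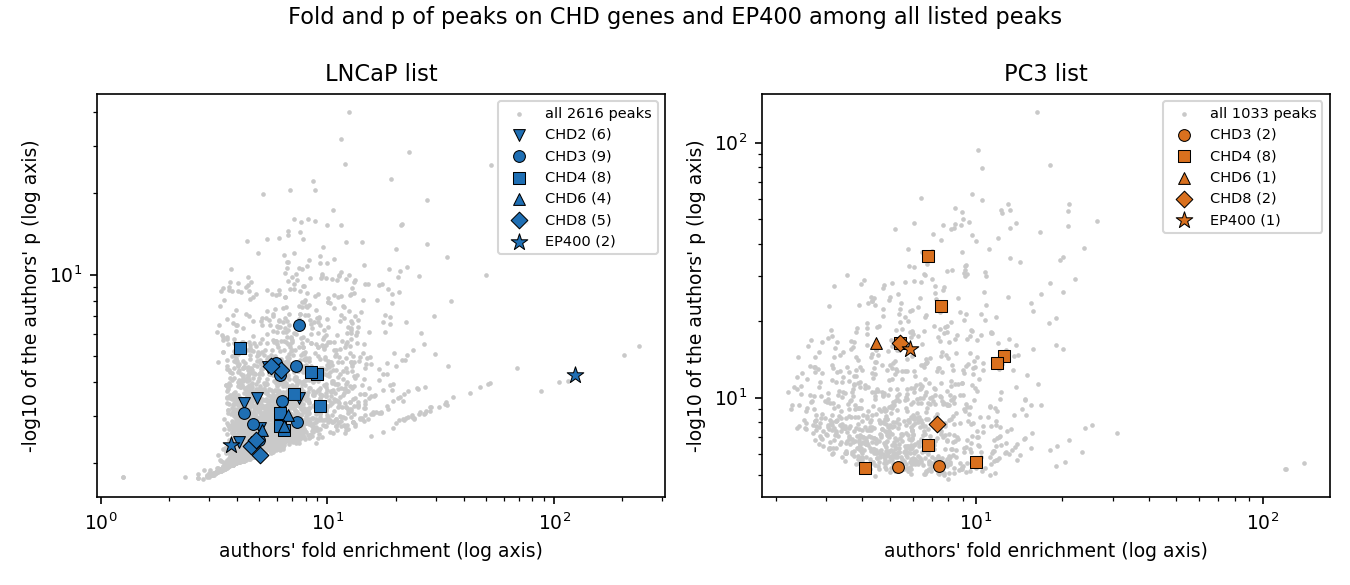
Each panel plots the authors' fold (x, log axis) against the negative log10 of the authors' p (y, log axis) for every peak of a list in grey, with the peaks on the named genes in colour and the number per gene in the key. The EP400 peak of fold 123.9 stands alone to the right in LNCaP, and 2 CHD4 peaks stand highest among the coloured points in PC3.

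CHD1 and CHD2 are the paralogous pair that acts on transcribed chromatin, and only CHD2 carried peaks. Its 6 LNCaP peaks were all on the plus strand, that of the gene (chromosome 15). They fell into 2 clusters of 3. The first cluster began with a 151 bp peak at 92924395 to 92924545, with a fold of 4.27. A peak of 10554 bp at 92929060 to 92939613 followed with a fold of 7.49, the highest on the gene. The cluster closed with a peak at 92941841 to 92942853, with a fold of 5.45. The second cluster lay near the 3′ end, at 92998556 to 93004681, 93009224 to 93012345 and 93014896 to 93020023. Its folds were 5.06, 4.06 and 4.91. The middle part of the gene, with the span divided in 3 equal parts, held the midpoint of no peak. CHD1, on chromosome 5 with a span of 75023 bp, longer than those of CHD3 and CHD4, held no peak.

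Within the NuRD group, CHD3 and CHD4 carried peaks and CHD5 did not. CHD3 (chromosome 17, plus strand) held 9 LNCaP peaks, all on its own strand and covering 36.9% of its span, the largest share among the 10 genes in that list. The strongest by p was a 201 bp peak at 7884880 to 7885080, with a fold of 7.46 and a p of 3.20e-07. It began 84 bp after the 5′ end of the gene span, and the span of NAA38, a minus-strand gene, also held it. A minus-strand LNCaP peak at 7883314 to 7885209, with a fold of 3.91, overlapped it and ran 1482 bp out of CHD3 into NAA38, so it was not counted. The next 5 CHD3 peaks lay between 7889775 and 7898531, with folds from 5.01 to 7.25. The last 3 lay between 7903909 and 7907688, with folds of 4.29, 4.70 and 7.31. In PC3, CHD3 held a 76 bp peak at 7897112 to 7897187 with a fold of 5.35 and a 469 bp peak at 7898063 to 7898531 with a fold of 7.41. Both lay inside a single LNCaP peak, at 7895472 to 7898531, with a fold of 6.20, and the second ended at the same base. They covered 1.95% of the gene. By p they stood near the weak end of the PC3 list, at ranks 982 and 978 of 1033.

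CHD4, the main NuRD motor in most cells, was the gene with the most PC3 peaks among the 10 and, of the 6 genes with a peak, the only one with as many in PC3 as in LNCaP. Peaks on its own, minus, strand covered 24.6% of its span in LNCaP and 48.9% in PC3. Of these, 6 of 7 in LNCaP and 4 of 6 in PC3 had their midpoint in the first part of the span. Over all peaks assigned to a single gene, the first part held 20.2% in LNCaP and 14.8% in PC3. Those shares include peaks on either strand of the gene, each placed along the strand of the peak. Every one of the 8 LNCaP peaks on CHD4 overlapped a PC3 peak on the same strand by at least 1 bp, beside 21.3% of the whole LNCaP list. The overlap was slight for the LNCaP peak at 6600655 to 6600986, which shared 26 bp with one PC3 peak and 1 bp with another.

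Next to the start, the LNCaP peak at 6602481 to 6606432 had a fold of 9.31 and the PC3 peak at 6601421 to 6606407 a fold of 7.52, their 5′ edges 25 bp apart. The PC3 peak also took in a separate LNCaP peak of 268 bp at 6601446 to 6601713, with a fold of 6.17. Further along, LNCaP had peaks at 6600655 to 6600986 and 6599863 to 6600630, with folds of 8.46 and 7.09. PC3 had a 51 bp peak at 6600961 to 6601011 with a fold of 9.99 and a peak at 6599863 to 6600655 with a fold of 11.9. The last of these and its LNCaP counterpart had the same 3′ edge.

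The highest CHD4 fold in PC3, 12.5, was at 6595388 to 6598416, and only 7.07% of that list had a higher fold. In LNCaP the same stretch was held by 2 shorter peaks, at 6597919 to 6598366 with a fold of 6.45 and at 6595363 to 6596063 with a fold of 4.13. The latter was the strongest LNCaP peak on CHD4 by p, 4.69e-06. A PC3 peak of 5106 bp at 6583266 to 6588371, with a fold of 5.43 and a p of 4.44e-17, had no LNCaP counterpart. Near the 3′ part, PC3 had a peak at 6577913 to 6582194 with a fold of 6.80. Its p of 1.18e-36 was the smallest on any of the 10 genes and ranked number 41 of the list. The LNCaP peak inside it, at 6578445 to 6581145, had a fold of 6.15.

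CHD4 was also the only one of the 10 genes with peaks on both strands whole within its span. A plus-strand peak at 6578646 to 6582718 had identical bounds in both lists. Its LNCaP fold was 9.02 and its PC3 fold 6.77. It shared 2500 bp with the minus-strand peak in LNCaP and 3549 bp with that in PC3. A second plus-strand peak in PC3, of 151 bp at 6583268 to 6583418 with a fold of 4.10, lay inside the 5106 bp minus-strand peak, whose start was 2 bp away. By p this 151 bp peak was the weakest of the 14 PC3 peaks, at rank 989 of 1033. Both plus-strand peaks lay whole within the span of CHD4-AS1 (chromosome 12, 6568371 to 6584751), a long noncoding RNA gene on the plus strand. The libraries were stranded, per the labels' protocols, but how strand was used in counting is not given in the sources used here.

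In all, 1 opposite-strand pair lay on the 10 genes in LNCaP and 2 in PC3. These took in 2 of 34 LNCaP peaks (5.88%) and 4 of 14 PC3 peaks (28.6%). Over the whole lists, 5.47% of LNCaP peaks and 7.94% of PC3 peaks overlapped a peak of the other strand. The measures differ, since on the 10 genes both peaks of a pair had to lie whole within the gene. The LNCaP peak on CHD3 at 7884880 to 7885080, overlapped by the minus-strand peak that runs into NAA38, was therefore left out. The PC3 share rests on CHD4 alone, where 4 of 8 peaks were in such pairs.

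**Figure D3:**
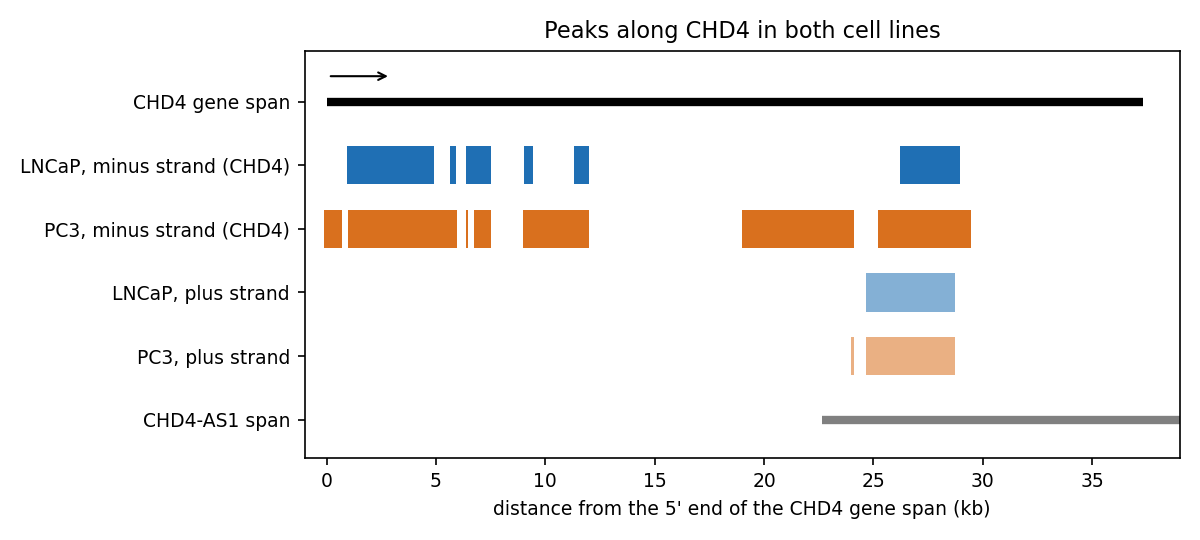
Peaks are drawn to scale along CHD4 as distance in kb from the 5′ end of its span (arrow, direction of transcription), by list and strand, with the span of CHD4-AS1 in grey, cut at the right edge. The narrowest peaks are drawn slightly wider than scale so that they can be seen. The PC3 peak at the far left runs 97 bp out of the gene. The plus-strand peak has the same bounds in both lists.

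Of CHD6, CHD7, CHD8 and CHD9, which form the remaining subfamily, CHD6 and CHD8 carried peaks. CHD8, which binds beta-catenin and is a leading autism risk gene, lies on the minus strand of chromosome 14 and held 5 LNCaP and 2 PC3 peaks, all on that strand. Near its 3′ end, the LNCaP peak at 21391612 to 21392512 had a fold of 4.58 and the PC3 peak at 21391587 to 21392512 a fold of 7.33. They shared their 5′ edge, at the higher coordinate. Next to it, LNCaP alone listed a 525 bp peak at 21390963 to 21391487 with a fold of 6.24.

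The second place of CHD8 peaks lay in the middle part of the span. LNCaP listed peaks at 21428230 to 21428964, 21415884 to 21428205 and 21414972 to 21415577, with folds of 5.64, 5.05 and 4.82. PC3 had a single peak there, at 21426204 to 21428989, with a fold of 5.42 and a p of 4.04e-17. It bridged the 25 bp gap between the first pair of these LNCaP peaks.

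CHD6, a remodeler linked to the response to oxidative stress, is transcribed from the minus strand of chromosome 20, a fact taken from general knowledge, since the table used here has no entry for it. Its longest LNCaP peak, at 41498198 to 41533485, spanned 35288 bp with a fold of 6.44. The only PC3 peak, at 41514813 to 41533485, had the same 5′ edge and covered 52.9% of it, with a fold of 4.47 and a p of 3.47e-17. The other LNCaP peaks lay in the last part of the gene, at 41440054 to 41445689, 41450976 to 41451871 and 41451971 to 41452810. Their folds were 4.60, 5.16 and 6.67. A span contains introns, so 35288 bp is a genomic distance and not a length of RNA. CHD7, the gene mutated in CHARGE syndrome, and CHD9 held no peak on either strand.

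EP400 (chromosome 12, plus strand) held both the highest and the lowest fold among the 34 LNCaP peaks. The LNCaP peak at 131986796 to 131991439 had a fold of 123.9, rank number 4 of 2616, with a p of 5.54e-05 that ranked number 536. The PC3 peak at the same place, 131986746 to 131994916, started 50 bp earlier and held the LNCaP peak whole. Its fold was 5.87, which 48.1% of that list exceeded, and its p was 2.78e-16. A second LNCaP peak, at 132043709 to 132044232, had a fold of 3.76 and no PC3 counterpart. EP400P1, a transcribed pseudogene derived from EP400, begins 3823 bp after its end, and how reads shared by the copies were counted is not given in the sources used here.

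**Figure D4:**
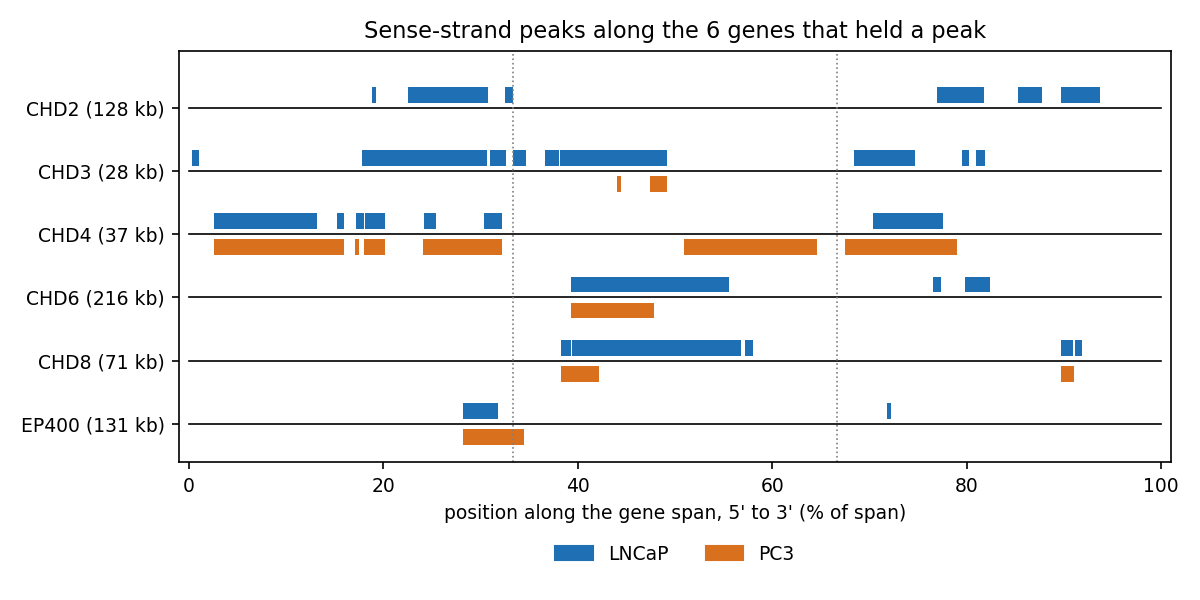
Peaks on the strand of the gene are drawn along each span, as percent of the span from the 5′ end, for the 6 genes with a peak, LNCaP above the line and PC3 below it; dotted lines mark the 3 equal parts. The narrowest peaks are widened so that they can be seen. PC3 peaks overlap LNCaP peaks in position on CHD3, CHD6, CHD8 and EP400, and the CHD4 peak of PC3 in the middle part has no LNCaP peak above it.

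Peaks of both lines were counted as overlapping where at least 1 bp was common to both and the strand was the same. On the 10 genes this held for 12 of 14 PC3 peaks (85.7%) and 14 of 34 LNCaP peaks (41.2%). Over the whole lists it held for 44.4% of PC3 peaks and 21.3% of LNCaP peaks. Since the genes were chosen with both lists in view, the higher shares support nothing further. Both PC3 peaks without a counterpart were on CHD4. The 20 LNCaP peaks without a counterpart comprised 8 on CHD3, 6 on CHD2, 3 on CHD6, 2 on CHD8 and 1 on EP400. With at least 50% of both peaks required, 7 PC3 peaks overlapped, and 1 did when LNCaP peaks had to lie at or under the largest PC3 p.

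On the strand of the gene, the first, middle and last part of the span held 13, 7 and 13 of the 33 LNCaP peaks, and 5, 5 and 2 of the 12 PC3 peaks. The last part thus held 39.4% in LNCaP and 16.7% in PC3, beside 45.8% and 56.3% over all peaks assigned to a single gene. The latter were not limited to the strand of the gene and were placed along the strand of the peak, so the measures differ. CHD4 gave 4 of the 5 PC3 peaks in the first part. As several peaks come from the same transcript, they are not independent and these shares were not tested.

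Some peaks contained small RNA genes within their spans. The CHD8 peak near the 3′ end held SNORD9, a small nucleolar RNA, whole in both lists. The plus-strand CHD4 peak held SCARNA11, a small Cajal body RNA, in both lists, and so did the overlapping minus-strand peak in PC3. This came to 2 of 34 LNCaP peaks (5.88%) and 3 of 14 PC3 peaks (21.4%), beside 2.10% and 2.03% over the whole lists. Small RNA genes were matched by position without regard to strand, so SCARNA11 was counted for PC3 peaks on opposite strands. The PC3 share thus rests on SNORD9 and SCARNA11 alone. The part of these small RNAs in the folds was not tested.

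Partners of the same complexes were counted as well, and their counts stand beside the 5.62% of all protein-coding genes with a LNCaP peak and the 1.83% with a PC3 peak, or 9.25% and 3.29% of genes at least as long as CHD3. Of 12 NuRD partners, MTA1 and MBD3 held a peak in LNCaP and none did in PC3. MTA1, a scaffold that binds the deacetylases, held 4 peaks with folds from 4.27 to 8.76, and MBD3 held 1 with a fold of 4.95. Of 17 TIP60 partners of EP400, 3 held a single peak in LNCaP and none did in PC3. These were BRD8, a bromodomain subunit, with a fold of 9.94, the scaffold TRRAP with 8.17 and EPC2 with 4.52. Of 20 other SNF2-family ATPases, 7 held a peak in LNCaP and 3 in PC3, and SMARCA4 and SRCAP did so in both. SMARCA4, the motor of the BAF complex, held 7 and 8 peaks, as many as CHD4 in PC3. A plus-strand gene, SMARCA4 also had peaks on both strands in PC3, with its highest fold, 11.4, on the minus strand. Its smallest authors' p was 4.25e-12 in LNCaP and 1.28e-48 in PC3, smaller than any on the 10 genes in the same list. SRCAP, the motor of the complex named after it, held 1 peak in each list, with folds of 7.49 and 6.36. As for identity of the lines, 3 of 7 LNCaP marker genes held a peak in LNCaP and none in PC3, and 1 of 6 PC3 marker genes held a peak in each list; a peak is no measure of expression.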

How the data were processed

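RIP-seq was labelled for METTL3 IP and input in LNCaP and PC3, with 2 replicates per group. The submitters' processing notes name fastp, STAR 2.5.3a, bedtools, deepTools and build hg38; the peak caller, annotation, filters and handling of replicates are not given in the sources used here. Per the file headers, each deposited list gives 4 values per peak: linear fold enrichment, p-value, FDR and score. The deposited FDR of every peak matched a Benjamini-Hochberg adjustment made within its list, and the deposited score was the negative log2 of that FDR, so neither covers regions that were not listed.

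Peaks were assigned to RefSeq gene spans (GRCh38.p14) with Python 3.11.15 and pandas 2.3.3. The table gives no exons, and no genome was used. The strand of 7 genes came from the promoter table and that of CHD5, CHD6 and CHD7 from general knowledge. The assignment was tested on simulated peaks. All 10 genes and all their peaks are named, and those partners in fixed lists that held a peak. Genes and lists were chosen with earlier results of these data known. The planned IP against input test needs values per sample and was not run.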

Additional observations from a re-analysis of the deposited data

How the results depend on the processing

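Of 39 alternative values, 33 stayed within 1.5 times the count or, for a median fold, within the 95% interval of the median over peaks; 1 of the 39, the LNCaP median without the largest EP400 peak, was chosen after the data had been seen and was 5.92. The other 6 moved. With the largest PC3 p applied, LNCaP kept 2 peaks on 2 of the genes, and 1 PC3 peak overlapped a LNCaP peak. With 50% of both peaks required, 7 PC3 peaks overlapped. With an overlap of 90% of the longer peak required, 0 opposite-strand pairs were left in LNCaP and 0 in PC3. A fixed FDR, a minimum fold of 4, the gene's own strand, joining of peaks within 25 bp and other rules of assignment gave 31 to 35 LNCaP and 10 to 15 PC3 peaks. No paired analysis was possible because the lists hold no values per replicate, and no replicate could be left out in turn. Depth is unknown in both lists.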

Other observations

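Peak bounds on these genes often differed between the lines by whole steps of 25 bp, 0 included. This held for 15 of the 32 bounds of the 16 overlapping pairs (46.9%), beside 53.8% of the 1248 bounds of all 624 pairs. Within LNCaP, 3 of the 27 neighbouring same-strand peaks on a gene followed at exactly 25 bp, on CHD3, CHD4 and CHD8, and none of 8 did in PC3. In all 16 pairs the PC3 peak had the smaller p. The p-values admitted to each list fixed this for every pair except that of the LNCaP peak on CHD4 at 6595363 to 6596063. In the others the LNCaP p lay above the largest PC3 p.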
